A study of Citrus sinensis with 4 samples.

Results

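The genes described here had a level in the endocarp of 70-day fruit of the sweet orange cultivar Dahongtiancheng that stood well above their level in the 3 other libraries of the series. There were 48 such genes, out of 28435 gene models to which the rule was applied and 29036 in all. RNA was sequenced from endocarp of Citrus sinensis L. Osbeck 'Dahongtiancheng' and 'Bingtangcheng', taken 50 or 70 days after full bloom. There was 1 library for each cultivar and stage, no treatment is named for any of them, and the labels do not say how many fruits or trees were pooled. There were no replicates, so differences are given with counting intervals and without p-values.

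The endocarp is the inner layer of the citrus fruit wall, and the juice sacs that fill the segments grow from it. In young fruit its cells pass from division to enlargement, and the vacuoles of the juice cells take up organic acids, above all citric acid. Dahongtiancheng is known as the more acid of these cultivars. The identifiers in the files are paired with no gene names, and 0 of the 48 matched the supplied RefSeq naming table, so the genes are described by identifier, position, gene model and level. No marker list for endocarp or for neighbouring tissues could be filled for the same reason. In whole tissue, more cells of a type and more RNA per cell cannot be told apart.

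The level of a gene was its CPM, the number of fragments per 1000000 of the library total, plus 0.5. A gene was taken when its 70-day Dahongtiancheng level was at least 5 and at least 4 times the highest of the other libraries, with that second highest level less than 1.5 times the third. The lowest library was left free. Gene models named Citrus_newGene, of which 5 met the thresholds, and the gene Cs1g16150 were left out by name. These same values chose the genes, so the excess in 70-day Dahongtiancheng is a description and no finding. The genes made up 0.347% of the 13817 gene models whose level reached 5 in at least 1 library. For each library in turn, the level in 70-day Dahongtiancheng was at least 5 and at least 4 times that in 50-day Dahongtiancheng for 1.99% of these models, that in 50-day Bingtangcheng for 2.32%, and that in 70-day Bingtangcheng for 1.41%.

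The same rule with another library on top found fewer genes. It took 8 genes (0.0579%) for 50-day Dahongtiancheng, 13 (0.0941%) for 50-day Bingtangcheng and 4 (0.0289%) for 70-day Bingtangcheng. Without the condition on the second highest library, the numbers were 89 for 70-day Dahongtiancheng, against 10 for 50-day Dahongtiancheng, 23 for 50-day Bingtangcheng and 10 for 70-day Bingtangcheng. With 1 library per combination, what belongs to the cultivar at this stage and what belongs to this library cannot be told apart.

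**Figure D1:**
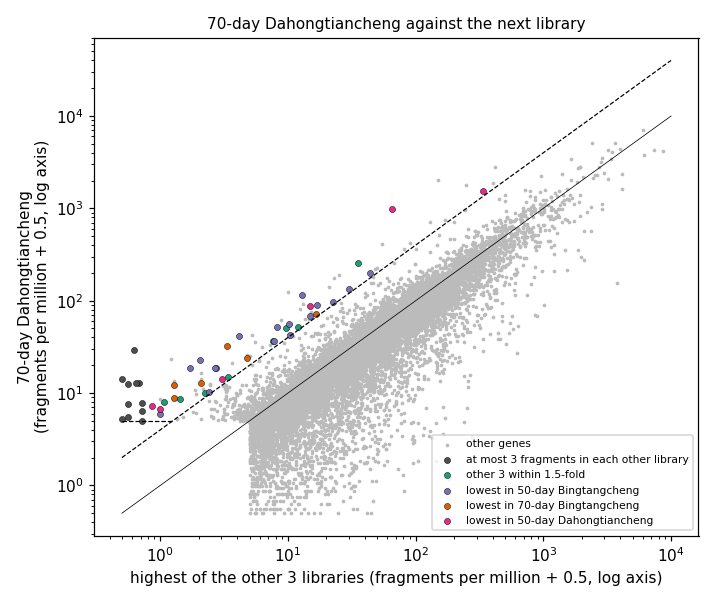
Each point is a gene model that reached a level of 5 in at least 1 library. The horizontal axis gives the highest level among the 3 other libraries and the vertical axis the level in 70-day Dahongtiancheng, both as CPM plus 0.5 on log axes. The solid line marks equal levels and the dashed lines the 4-fold and level-5 thresholds; the 48 genes are coloured by their order over the other libraries, and grey points above the dashed line are genes whose second highest level was 1.5 or more times the next.

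The 4 libraries held between 14040916 and 16445383 fragments, with 10 or more fragments for 15788 to 16485 of the gene models. A count of 3 fragments, used here in place of a count of 0 when a fold was computed, corresponded to between 0.182 and 0.214 CPM. With levels scaled to library totals, the median log2 ratio of all 13817 gene models was -0.20 for 70-day over 50-day Dahongtiancheng, -0.26 for 70-day over 50-day Bingtangcheng and -0.0021 between the cultivars at 70 days. The median log2 ratio over the 48 genes was 3.16 for 70-day over 50-day Dahongtiancheng, 2.96 for 70-day Dahongtiancheng over 70-day Bingtangcheng and 3.39 over 50-day Bingtangcheng. With TMM factors in place of totals, the medians of all models were 0.0022, 0.0145 and -0.0281 in the order given, and those of the 48 genes 3.35, 2.98 and 3.52.

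Together the 48 genes held 70496 fragments in 70-day Dahongtiancheng, 0.435% of the library (exact 95% binomial interval 0.432 to 0.439). Their share was 0.0385% (0.0375 to 0.0395) in 50-day Dahongtiancheng, 0.055% (0.0537 to 0.0562) in 50-day Bingtangcheng and 0.0566% (0.0554 to 0.0577) in 70-day Bingtangcheng. All intervals given here cover counting error only, since there was 1 library for each cultivar and stage. Fragments counted without molecular barcodes may be copies of 1 molecule, so the intervals may be too narrow even for that. In 70-day Dahongtiancheng 57.9% of the fragments of the group came from Cs4g05780 and Cs5g18500. Without these 2 genes the share was 0.183% there, and between 0.015% and 0.0257% in the other libraries.

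The genes covered a wide range. Their 70-day Dahongtiancheng level ran from 5.01 to 1542 with a median of 18.8, and 36 genes were at 10 or above while 6 were at 100 or above. The ratio of that level to the second highest ran from 4.12 to 47.0 with a median of 6.82. For 40 of the 48 genes the lower 95% counting limit of the ratio of CPM to the second highest library lay above 4, and for all 48 it lay above 2, with the lowest limit, 3.44, in Cs4g19810. The rule chose the genes by this same excess, so these limits describe it and do not test it. The name "high only in 70-day Dahongtiancheng" holds for part of the group: 11 genes had at least 5 CPM in every other library, and 18 had that in at least 1 of them.

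By their order over the other 3 libraries, which the rule fixed in part, the genes were divided into 5 classes. In 11 genes every other library had 3 fragments or fewer. In 8 the other libraries lay within 1.5-fold of each other. In 17 the lowest was 50-day Bingtangcheng, in 6 it was 70-day Bingtangcheng and in 6 it was 50-day Dahongtiancheng, each at least 1.5-fold below the second highest library. Of all 13817 gene models, 2.96% met the same condition on the second highest level with 50-day Bingtangcheng lowest, 2.39% with 50-day Dahongtiancheng lowest, 26.4% with 70-day Bingtangcheng lowest and 56.1% with all 3 alike. Whether the group differs from the other gene models in this was not tested. The shares of all models use library totals and were not recomputed with TMM factors. These classes were set after the values were seen.

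**Figure D2:**
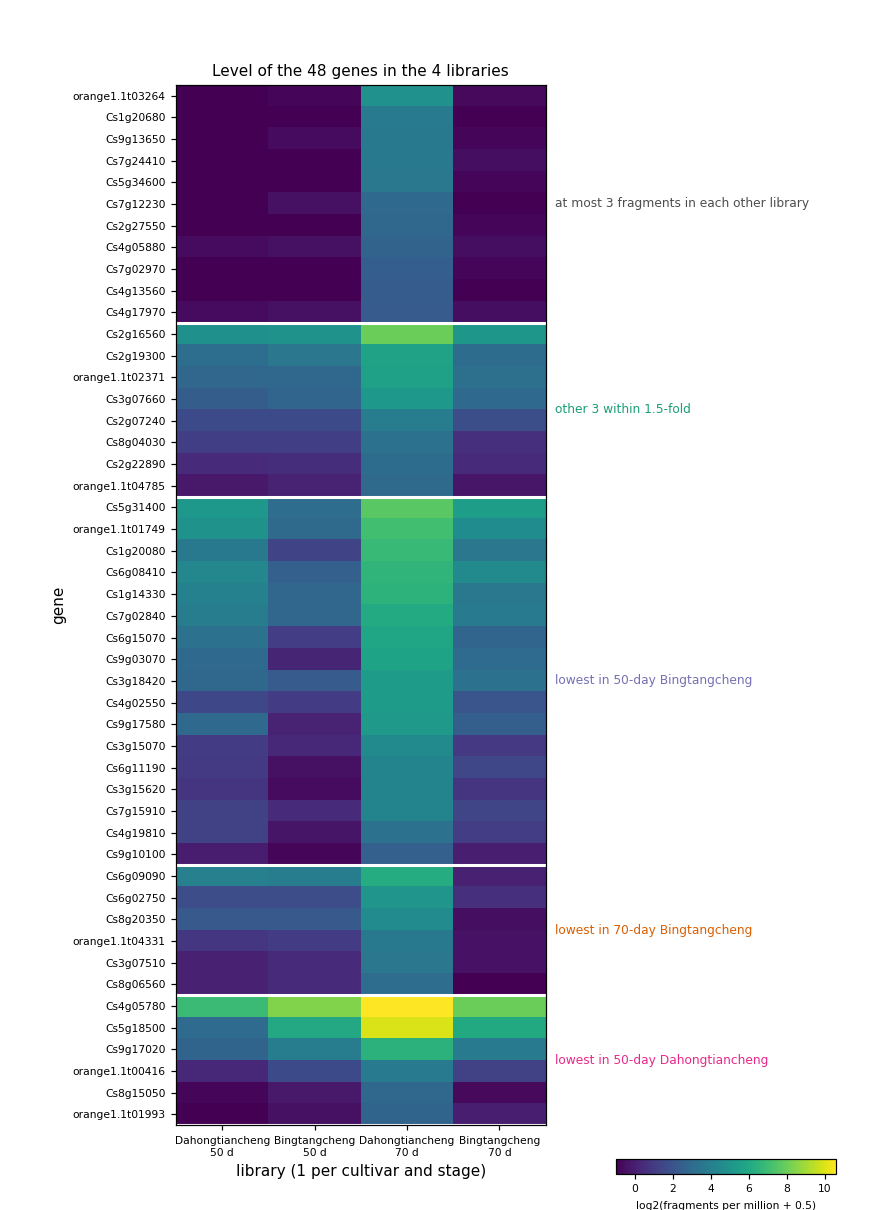
Rows are the 48 genes and columns the 4 libraries, and the colour gives log2 of the level, CPM plus 0.5. Rows are grouped by class and ordered by 70-day Dahongtiancheng level within each; the third column is the brightest in every row, and the column that is darkest changes between the classes.

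The 11 genes with 3 fragments or fewer elsewhere were close to an on and off pattern. Genes of this kind, at a level of 5 or more in 1 library and with at most 3 fragments in each of the others, numbered 3 for 50-day Dahongtiancheng, 2 for 50-day Bingtangcheng and 0 for 70-day Bingtangcheng. By the condition that defines them, all 11 genes of this kind for 70-day Dahongtiancheng belong to the group, and they are 0.0796% of the 13817 models. They held 1838 fragments in 70-day Dahongtiancheng against 4, 12 and 15 in 50-day Dahongtiancheng, 50-day Bingtangcheng and 70-day Bingtangcheng.

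The ratio to the second highest level was greatest in orange1.1t03264 (unplaced sequence, 50131404 to 50132157, minus strand). It had 465 fragments in 70-day Dahongtiancheng, 0 in 50-day Dahongtiancheng, 1 in 50-day Bingtangcheng and 2 in 70-day Bingtangcheng. Its CPM was 156-fold higher than in 50-day Dahongtiancheng, computed against 3 fragments in that library. The 95% exact counting interval of that ratio, which uses the count of 0, starts at 126. Over 70-day Bingtangcheng its CPM was 236-fold higher (65.0 to 1960). The value computed against 3 fragments and the start of the interval use different bounds for a count of 0, so they differ. Its gene model is 654 bases long, and its 70-day Dahongtiancheng level per length was 43.9 CPM per kilobase, above the median of 20.1 for the 48 genes.

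Cs1g20680 (chromosome 1, 23694097 to 23700703, plus strand) gave 219 fragments in 70-day Dahongtiancheng and 0 in each of the 3 other libraries. Computed against 3 fragments, that is 73.3-fold above 50-day Dahongtiancheng, 63.3-fold above 50-day Bingtangcheng and 74.1-fold above 70-day Bingtangcheng. The 95% counting intervals, which use the counts of 0, start lower, at 59.1, 51.0 and 59.8. Cs4g13560 (chromosome 4, 10891610 to 10894159, minus strand) was the other gene with 0 fragments in all 3 libraries, against 77 in 70-day Dahongtiancheng. Its model of 2550 bases forms a single block, and its 70-day Dahongtiancheng level of 1.86 CPM per kilobase was the lowest of the 48 genes.

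Next to these stood Cs5g34600, Cs9g13650, Cs7g24410 and Cs2g27550. Cs5g34600 (chromosome 5, 35374576 to 35374989, minus strand) gave 193 fragments in 70-day Dahongtiancheng, 1 in 70-day Bingtangcheng and 0 in both 50-day libraries. Cs9g13650 (chromosome 9, 13071763 to 13072284, plus strand) gave 200 against 0, 2 and 1 in 50-day Dahongtiancheng, 50-day Bingtangcheng and 70-day Bingtangcheng. In both genes the excess over either Bingtangcheng library rests on a denominator of 2 fragments or fewer. For Cs9g13650 the ratio over 70-day Bingtangcheng was 203, with an interval from 36.0 to 8060.

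Cs7g24410 (chromosome 7, 24167223 to 24169662, minus strand) gave 198 fragments in 70-day Dahongtiancheng, 0 in the 50-day libraries and 3 in 70-day Bingtangcheng, a 67.0-fold difference (22.6 to 328) at 70 days. Cs2g27550 (chromosome 2, 27288913 to 27289413, plus strand) gave 116, with 1 in 70-day Bingtangcheng and 0 at 50 days. Cs7g12230 (chromosome 7, 8164445 to 8164927, plus strand) gave 119, with 3 in 50-day Bingtangcheng and 0 in the other 2 libraries. In these 3 genes no library other than 70-day Dahongtiancheng had more than 3 fragments. The class was completed by Cs7g02970, with 82 fragments in 70-day Dahongtiancheng, 1 in 70-day Bingtangcheng and 0 at 50 days, and by Cs4g05880 and Cs4g17970, with 96 and 73 fragments in 70-day Dahongtiancheng and 2 or 3 in every other library.

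The class in which 50-day Bingtangcheng was lowest was the most numerous. Across its 17 genes, CPM values in 70-day Dahongtiancheng were 4.54 to 17.3 times those in 50-day Dahongtiancheng, 4.28 to 15.8 times those in 70-day Bingtangcheng and 9.25 to 128 times those in 50-day Bingtangcheng. The rule held 70-day Bingtangcheng and 50-day Dahongtiancheng close to each other, since both ranked next to 70-day Dahongtiancheng. The median ratio of the former to the latter was 1.04, and for 10 of the 17 genes its 95% counting interval held 1. Relative to 50-day Bingtangcheng, the ratio had a median of 4.27 (1.56 to 12.9 over the genes) in 50-day Dahongtiancheng and of 4.03 (1.83 to 12) in 70-day Bingtangcheng. Both ratios are above 1 by the way the class was formed, and in 14 of the 17 genes the counting intervals of both lay above 1.

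Cs5g31400 (chromosome 5, 33059603 to 33065281, minus strand) gave the most fragments of the class, with 583 in 50-day Dahongtiancheng, 118 in 50-day Bingtangcheng, 3195 in 70-day Dahongtiancheng and 718 in 70-day Bingtangcheng. Its CPM was 5.5-fold higher (5.03 to 6.02) at 70 than at 50 days in Dahongtiancheng and 5.20-fold higher in Bingtangcheng. The cultivars differed 4.27-fold (3.5 to 5.25) at 50 days and 4.52-fold (4.17 to 4.91) at 70 days. Its level in 70-day Dahongtiancheng was 23.5-fold higher (19.5 to 28.5) than in 50-day Bingtangcheng, the lowest of the libraries.

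orange1.1t01749 (unplaced sequence, 27937616 to 27940997, minus strand) gave 477 and 105 fragments at 50 days, then 2156 and 404 at 70 days, in Dahongtiancheng and Bingtangcheng. Cs6g08410 (chromosome 6, 10410518 to 10415580, plus strand) gave 328 and 76 at 50 days, then 1550 and 359 at 70 days. Both likewise had 50-day Bingtangcheng lowest, with stage ratios in Dahongtiancheng of 4.54 (4.11 to 5.02) and 4.74 (4.21 to 5.36) and in Bingtangcheng of 3.29 and 4.03.

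Cs1g20080 (chromosome 1, 23215784 to 23221394, minus strand) gave 201 and 29 fragments at 50 days, then 1838 and 192 at 70 days. Its 3319-base model was the longest of the 48. Its level was 9.18-fold higher (7.93 to 10.7) at 70 days in Dahongtiancheng, and at 70 days it was 9.72-fold higher (8.38 to 11.3) in Dahongtiancheng than in Bingtangcheng. Its position shares 332 bases with Cs1g20070 on the opposite strand, which had 164, 162, 86 and 48 fragments in 50-day Dahongtiancheng, 50-day Bingtangcheng, 70-day Dahongtiancheng and 70-day Bingtangcheng. The counting is not stated to use strand, so fragments of the shared bases cannot be assigned.

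Cs1g14330 (chromosome 1, 17648533 to 17650621, minus strand) gave 267 and 92 fragments at 50 days, then 1429 and 197 at 70 days. Cs6g15070 (chromosome 6, 16166126 to 16172589, plus strand) gave 156 and 23 at 50 days, then 898 and 104 at 70 days. In Cs6g15070 the second highest level was 1.48 times the next, the widest gap of the 48 genes. Cs3g15070 and Cs3g15620, 361 kb apart on chromosome 3, had lower counts and larger ratios. Cs3g15070 (19294043 to 19297647, minus strand) gave 25 and 10 fragments at 50 days, then 358 and 23 at 70 days, and Cs3g15620 (19658605 to 19660944, plus strand) gave 19 and 2 at 50 days, then 295 and 20 at 70 days. For Cs3g15620 the 70-day level was 15.6-fold higher (9.80 to 26.3) than at 50 days in Dahongtiancheng and 15.0-fold higher (9.52 to 24.9) than in 70-day Bingtangcheng.

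Cs1g16150, left out by name, met the same thresholds and showed this order. It had 3707 and 250 fragments at 50 days, then 24911 and 3955 at 70 days, in Dahongtiancheng and Bingtangcheng.

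**Figure D3:**
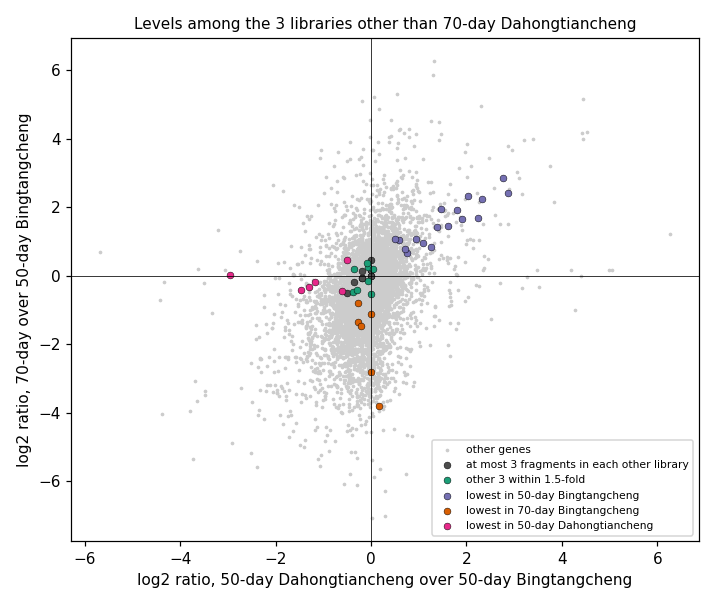
The horizontal axis gives the log2 ratio of the level in 50-day Dahongtiancheng to that in 50-day Bingtangcheng and the vertical axis the log2 ratio of 70-day to 50-day Bingtangcheng, so 70-day Dahongtiancheng is not used. Grey points are gene models that reached a level of 5 in any library. The class with 50-day Bingtangcheng lowest lies at the upper right, where both ratios are above 0, the class with 70-day Bingtangcheng lowest lies below 0 on the vertical axis, and Cs5g18500 lies at the far left.

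Over all 48 genes, 70-day Bingtangcheng exceeded 50-day Bingtangcheng at least 2-fold in 13 genes and was at least 2-fold lower in 5, against 4.67% and 14.9% of the 13817 gene models. The 95% counting interval of this ratio lay below 1 in 7 of the 48, against 55.3% of all models, and against 10.2% that in addition had more CPM in 70-day than in 50-day Dahongtiancheng, which the rule fixed for the 48. At 50 days, 12 of the 48 were at least 2-fold higher in Dahongtiancheng than in Bingtangcheng and 4 at least 2-fold lower, against 1.45% and 2.34%. Between 70-day Bingtangcheng and 50-day Dahongtiancheng, 2 genes were at least 2-fold higher and 5 at least 2-fold lower, against 4.05% and 12.5%. The rule bounded the second highest of these 3 libraries against the third, so these counts are in part set by it and were not tested. The counts and shares use library totals, under which the median log2 ratio of all models was -0.26 for 70-day over 50-day Bingtangcheng. With TMM factors that median was 0.0145, and the shares were not recomputed with them.

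The 6 genes in which 70-day Bingtangcheng was lowest had a wider contrast at 70 than at 50 days, as the rule and the class together require. In this class the rule held the cultivars within 1.5-fold of each other at 50 days and set 70-day Dahongtiancheng at least 4-fold above both. Only the size of the 70-day contrast was left free. Cs6g09090 (chromosome 6, 10950088 to 10951487, minus strand) gave 262 and 200 fragments at 50 days in Dahongtiancheng and Bingtangcheng, and 1145 and 9 at 70 days. The cultivars were close at 50 days, with a ratio of 1.13 (0.938 to 1.37), and differed 129-fold (67.8 to 283) at 70 days. Cs8g20350 (chromosome 8, 22168034 to 22168968, minus strand) gave a similar picture with fewer fragments, 69 and 60 at 50 days, then 382 and 3 at 70 days. At 70 days it differed 129-fold (43.9 to 630) between the cultivars.

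The remaining 4 genes of this class had lower counts. Cs6g02750 had 46 and 40 fragments at 50 days, then 520 and 17 at 70 days, orange1.1t04331 had 21 and 22 and then 200 and 4, and Cs3g07510 and Cs8g06560 each had 9 and 11 at 50 days, followed by 190 and 4 and by 136 and 0. In all 6 genes the 2 cultivars were within their counting error of each other at 50 days. The rule had selected for this closeness, and counts such as 9 and 11 give wide intervals. For Cs6g09090 the excess over the second highest library was 4.39-fold (3.83 to 5.04), beside the 129-fold excess over 70-day Bingtangcheng. For Cs6g02750 the excess over 50-day Dahongtiancheng was 11.3-fold (8.38 to 15.7).

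The class with 50-day Dahongtiancheng lowest held the 2 genes with the highest 70-day Dahongtiancheng levels, also per length. Cs4g05780 (chromosome 4, 3542671 to 3543153, minus strand) gave 1950 fragments in 50-day Dahongtiancheng, 4707 in 50-day Bingtangcheng, 24958 in 70-day Dahongtiancheng and 4108 in 70-day Bingtangcheng. It was strongly expressed in all 4 libraries, and its 70-day Dahongtiancheng level came to 3191 CPM per kilobase. In Dahongtiancheng it was 12.8-fold higher (12.3 to 13.5) at 70 than at 50 days. In Bingtangcheng the 70-day level was 0.745 of that at 50 days with library totals and 0.909 of it with TMM factors.

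Cs5g18500 (chromosome 5, 18849612 to 18850223, plus strand) gave 127 fragments in 50-day Dahongtiancheng, 900 in 50-day Bingtangcheng, 15839 in 70-day Dahongtiancheng and 1067 in 70-day Bingtangcheng. Its 70-day Dahongtiancheng level came to 1598 CPM per kilobase. In Dahongtiancheng the level was 125-fold higher (105 to 150) at 70 days. In Bingtangcheng the ratio was 1.01 (0.925 to 1.11) with library totals, and TMM scaling raises it. The order of the cultivars therefore turned between the stages, from 0.122 (0.1 to 0.147) of the Bingtangcheng level at 50 days to 15.1-fold (14.2 to 16.1) above it at 70 days. Such a turn is fixed for every gene of this class by the rule and the class together. The rule also held the 2 Bingtangcheng levels within 1.5-fold of each other, so only the sizes were left free. It was the single gene among the 12 with the highest level that was also among the 12 with the largest ratio.

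Cs9g17020 (chromosome 9, 16431240 to 16432337, minus strand) also was lowest in 50-day Dahongtiancheng, with 100 and 203 fragments at 50 days, then 1417 and 207 at 70 days. The other 3 genes of this class, orange1.1t00416, Cs8g15050 and orange1.1t01993, had 220, 109 and 100 fragments in 70-day Dahongtiancheng and at most 12 in 50-day Dahongtiancheng. In 50-day Dahongtiancheng, 50-day Bingtangcheng and 70-day Bingtangcheng, Cs8g15050 had 1, 5 and 2 fragments and orange1.1t01993 had 0, 3 and 8. The counting intervals of their 50-day cultivar ratio, 0.00365 to 1.54 and 0 to 2.09, held 1, so their place in this class rests on few fragments.

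In the 8 genes with even levels elsewhere, 70-day Dahongtiancheng was the one library that stood out. Cs2g16560 (chromosome 2, 13430296 to 13432382, plus strand) gave 455 and 411 fragments at 50 days, then 4153 and 569 at 70 days. Its level in 70-day Dahongtiancheng was 9.16-fold above 50-day Dahongtiancheng (8.31 to 10.1), 8.76-fold above 50-day Bingtangcheng (7.92 to 9.72) and 7.41-fold above 70-day Bingtangcheng (6.79 to 8.11). The other 7 genes of this class had between 122 and 831 fragments in 70-day Dahongtiancheng. Among them, Cs3g07660 shares 136 bases with Cs3g07650 on the opposite strand, which also had its highest count, 1508, in 70-day Dahongtiancheng, against 671 to 876 in the other libraries. How many fragments of Cs3g07660 belong to that gene cannot be told from the files. In all, the positions of 5 of the 48 genes overlap another gene model, the others being Cs1g20080, Cs2g07240, Cs2g19300 and Cs7g15910. The share of such overlaps over all gene models is not given here.

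The genes were spread over the genome. Each of the 9 numbered chromosomes held between 3 and 6 of them, and 7 lay on unplaced sequence. These counts were not set against the number of gene models on each chromosome. Of the identifier forms, 41 genes were of the form Cs and 7 of the form orange1.1t, against 22603 and 5832 of the gene models to which the rule was applied. The minus strand carried 34 of the 48, against 49.6% of the 13817 gene models, and no test of this difference was made. The median model length was 1136 bases against 1707 over all these models. Models under 500 bases numbered 7, against 3.84% of all, and 8 models formed a single block with no gap between start and end, against 11.4%. Cs4g05780 and Cs5g18500 were among these 8.

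No 2 of the genes were direct neighbours, and 2 pairs lay within 100 kb of each other. The group was 48 of 28435 gene models. No comparison with other sets of that size was made, so these 2 counts carry no reading about the group. Neighbours were taken by position among the models to which the rule was applied, so Citrus_newGene models were left out. Unplaced sequence was ordered like a chromosome, and neighbours there may not adjoin in the genome. Of the 96 gene models flanking the 48 genes, 53 reached a level of 5 in some library. Their median ratio of 70-day Dahongtiancheng to the highest other library was 0.831, against 0.773 for genes flanking any of the 13817 models. Of these 53 flanking genes 2 exceeded 2-fold, which is 3.77%, against 1.64% for all.

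Those 2 flanking genes were Cs6g09080 and Cs7g02850, named here after their values were seen. Cs6g09080 (chromosome 6, 10947466 to 10949285, minus strand) ends 803 bases from Cs6g09090 and had 672 and 559 fragments at 50 days in Dahongtiancheng and Bingtangcheng, and 1854 and 3 at 70 days. Both genes were thus near 0 in 70-day Bingtangcheng, similar between the cultivars at 50 days and highest in 70-day Dahongtiancheng. Cs6g09080 missed the rule with a ratio of 2.75 to the second highest level. Cs7g02850 (chromosome 7, 1138152 to 1139629, plus strand) lies 364 bases from Cs7g02840 on the opposite strand.

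Cs7g02840 (1135900 to 1137788) had 235 and 92 fragments at 50 days, then 1104 and 218 at 70 days, and Cs7g02850 had 367 and 73 at 50 days, then 5915 and 1324 at 70 days. The ratio of 70-day Dahongtiancheng to the second highest level was 4.59 for Cs7g02840, over 50-day Dahongtiancheng. It was 4.52 for Cs7g02850, over 70-day Bingtangcheng, so the 2 ratios have different libraries below. In Dahongtiancheng the counts went from 235 to 1104 in Cs7g02840 and from 367 to 5915 in Cs7g02850. Cs7g02850 missed the rule because its second highest level was 3.51 times the third. Cs7g02970 lies 95.5 kb further along the same chromosome, with 12 gene models between it and Cs7g02840.

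The closest pair was Cs4g05780 and Cs4g05880 on chromosome 4, 49.6 kb apart. Both are single-block models on the minus strand, of 483 and 477 bases. All 9 gene models between them stayed under a level of 5 in every library. Cs4g05880 had 96 fragments in 70-day Dahongtiancheng against 24958 for Cs4g05780. Whether these are near-identical copies that share fragments was not tested, since no sequence was used here.

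**Figure D4:**
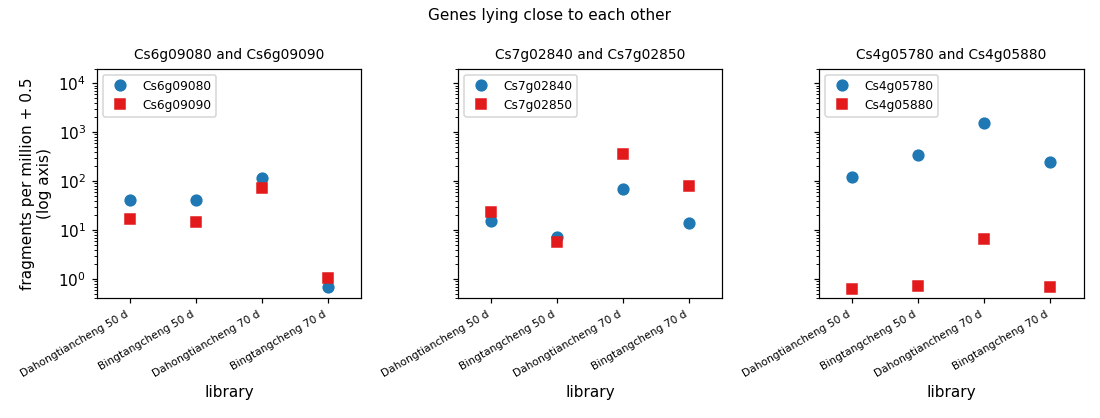
Each panel shows 2 genes that lie close to each other, with the level in each of the 4 libraries as CPM plus 0.5 on a log axis, 1 point per library. Cs6g09080 and Cs6g09090 both drop to about 1 or below in 70-day Bingtangcheng, Cs7g02840 and Cs7g02850 share their order except for the 70-day Bingtangcheng level of Cs7g02850, and Cs4g05880 lies far below Cs4g05780 with its highest point in the same library.

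At the thresholds, the ratio to the second highest level was 4.12 for Cs3g18420, 4.24 for Cs4g19810 and 4.29 for Cs6g09090 just inside, and 3.93 for Cs2g04770, 3.90 for Cs9g06810 and 3.84 for Cs8g10400 just outside. Cs2g04770 had 3940 and 140 fragments at 50 days, then 15449 and 3151 at 70 days, the order of the class with 50-day Bingtangcheng lowest. On the level in 70-day Dahongtiancheng, Cs4g17970 (5.01), Cs4g13560 (5.25) and Cs7g02970 (5.56) lay just inside, and Cs3g20695 (4.58), Cs9g09370 (4.58) and Cs6g21080 (4.20) just outside. On the ratio of the second highest level to the next, Cs6g15070 (1.48), Cs4g02550 (1.46) and Cs7g12230 (1.43) lay inside, and Cs3g12620 (1.51), Cs4g06660 (1.56) and Cs8g03710 (1.71) outside.

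The condition on the second highest level against the next kept out 41 genes that passed the other thresholds, and in 26 of them the second highest library was 70-day Bingtangcheng. These included genes with more fragments than any of the 48. Cs9g14690 had 2341 and 2607 fragments at 50 days, then 45417 and 6814 at 70 days, and Cs4g18310 had 739 and 538 at 50 days, then 32842 and 2452 at 70 days.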

How the data were processed

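RNA of fruit endocarp was sequenced after poly(A) enrichment, per the labels' protocols. No aligner, counting tool, strand setting, genome build or annotation is given in the sources used here. The deposited files hold raw fragment counts per gene (named so in the file headers), a scaled count (a normalized signal) and FPKM values. The deposited counts were used throughout. The deposited scaled signal and the deposited FPKM served as alternatives, and model lengths (a further, other column of the deposited files) gave levels per kilobase. A repeated header line was dropped.

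Counts were divided by library totals of 14040916 to 16445383. The genes and classes were chosen with earlier results of these data known. Intervals of ratios are exact conditional (Clopper-Pearson) ones at 95%. Folds against 0 were computed against 3 fragments per library. TMM factors (edgeR 4.0.16) and median-of-ratios factors (DESeq2 1.42.0, R 4.3.3) were used as alternative scalings only. No test was run, since each group has 1 library. Named were the 12 genes highest by level, the 12 highest by ratio and 3 on each side of each threshold. Others named were chosen after their values were seen.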

Additional observations from a re-analysis of the deposited data

Results flagged for a closer look

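In 7 of the 48 genes the level was higher at 70 than at 50 days in Dahongtiancheng, as the rule required, and lower in Bingtangcheng, with a counting interval below 1 in Bingtangcheng. Of all 13817 gene models, 55.3% had such an interval in Bingtangcheng and 10.2% combined it with a higher 70-day level in Dahongtiancheng, against 14.6% of the group. With 1 library per combination this difference between the cultivars was not tested. The shares of all models rest on library totals and were not recomputed with TMM factors. The median log2 ratio of all models for 70-day over 50-day Bingtangcheng was -0.26 with totals and 0.0145 with TMM factors. The ratio of 70-day to 50-day CPM in Bingtangcheng was 0.0384 (95% counting interval 0.0173 to 0.0744) for Cs6g09090 and 0.0427 (0.00856 to 0.131) for Cs8g20350. It was 0.155 (0.0389 to 0.457) for orange1.1t04331, 0.363 (0.193 to 0.655) for Cs6g02750 and 0 (0 to 0.34) for Cs8g06560, which had 0 fragments against 11. It was 0.745 (0.714 to 0.777) for Cs4g05780 and 0.705 (0.556 to 0.893) for Cs2g19300. With TMM scaling, which raises this ratio for every gene, it was 0.909 (0.871 to 0.948) for Cs4g05780 and 0.86 (0.678 to 1.09) for Cs2g19300, so the interval of Cs2g19300 then held 1.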

How the results depend on the processing

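No paired analysis was possible because each group has 1 library and no test was run, and for the same reason no library could be left out. The number of genes, 48, was 53 with TMM factors (44 shared) and 54 with median-of-ratios factors (44 shared). It was 93 with the deposited FPKM (38 shared), 18 with a fold threshold of 8, 74 with a level threshold of 2 and 89 with no bound on the second highest level. The share of 70-day Dahongtiancheng fragments, 0.435%, was 0.555% with TMM factors, 0.556% with median-of-ratios factors and with the deposited scaled counts, 0.56% with FPKM, 0.422% and 0.431% with pseudocounts of 0.1 and 1, 0.637% and 0.133% with fold thresholds of 3 and 8, 0.442% and 0.428% with level thresholds of 2 and 10, 0.238%, 0.69% and 1.74% with a tighter bound, a bound of 2 and none, and 0.443% with Citrus_newGene models counted. The class with 50-day Bingtangcheng lowest, 17 genes, held 17 with both other scalings, 4 with a fold threshold of 8, 11 with the tighter bound and 31 with none. Of the same 48 genes, both other scalings put 7 in place of 8 in the even class and 7 in place of 6 in that with 50-day Dahongtiancheng lowest. Genes next to another of the group, 0, became 2 with a level threshold of 2 and 4 with no bound. Single-block models, 8, became 33 with FPKM, 5 with a fold threshold of 8, 17 and 4 with level thresholds of 2 and 10, and 13 and 20 with a bound of 2 and none. Fewer or more genes admitted by a threshold follow from its construction; the cause of the FPKM difference was not tested. The ratio to the second highest library stayed at 4 or above for all 23 genes named by level or ratio, in all 138 values under other scalings, pseudocounts and deposited units. These 23 were chosen for a high level or ratio, and the other genes of the group were not checked in this way. With a pseudocount of 0.1 the rule took 39 genes and lost 12 of the 48, and with FPKM it lost 10. Depth limits the 11 genes with at most 3 fragments elsewhere, whose folds are computed against 3 fragments or have wide intervals.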
